A study of Arabidopsis thaliana with 4 samples.

Results

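The nuclear auxin signalling genes of Arabidopsis were described in the centre of the rosette. They comprise 29 Aux/IAA repressor genes, 15 auxin response factor (ARF) genes and 6 genes for receptors of the TIR1/AFB group, taken as a fixed set of 50 loci among the 32678 loci of the deposited count table. The tissue was the inner 1.5 to 2 cm of rosettes of the wild-type accession Col-0, cut from 31-day-old, untreated plants that had been grown at 22 °C under a 16-h photoperiod after a cold treatment of the seeds at 4 °C. RNA sequencing of 4 such cores forms 1 group, so the design holds no contrast and the results are levels, their order and their spread. Nothing in the labels ties each core to its own plant, and the p-values describe only how far these samples spread, possibly for technical reasons.

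Auxin acts in the nucleus by joining a receptor F-box protein to a repressor. TIR1 and its AFB relatives are the substrate-binding parts of an SCF ubiquitin ligase. When auxin is bound they hold an Aux/IAA protein at its degron, and that repressor is then degraded. Aux/IAA proteins otherwise sit on ARF transcription factors and recruit corepressors of the TOPLESS family. ARF proteins bind auxin response elements in promoters, and many Aux/IAA genes are themselves induced by auxin, which gives the pathway a negative feedback. In the shoot apex this pathway is known for placing new leaves and flowers and for vein formation.

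Small RNAs also act on these genes, and their sites mark which members share a regulator. The mature sequences were read from the TAIR10.1 genome at RefSeq's annotated positions and are shown because they separate the receptors and the ARF genes into groups. Capitals mark the seed, bases 2 to 8 from the 5′ end. The 3 miR160 loci give 1 sequence, as do both miR393 loci. Of the 4 miR167 loci, miR167a-5p and miR167b are identical, miR167d shares their seed, and miR167c-5p has the seed AAGCUGC.
miR160a-5p: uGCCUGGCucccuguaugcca
miR167a-5p: uGAAGCUGccagcaugaucua
miR167c-5p: uAAGCUGCcagcaugaucuug
miR393a-5p: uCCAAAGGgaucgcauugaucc

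The best ungapped complementary site of each miRNA was sought in the annotated transcripts of each locus, scoring 1 for a mismatch and 0.5 for a G:U wobble. A score of 4 or less was reached for miR160 by 3 members (ARF10, ARF16 and ARF17) and by 5 of all 27444 protein-coding loci (0.0182%). For miR167 it was reached by ARF6 and ARF8 and by 49 loci in all (0.179%). For miR393 it was reached by TIR1, AFB1, AFB2 and AFB3 and by 10 loci in all (0.0364%). All 9 sites lie within coding exons. They are shown 5′ to 3′ on the sense strand, with capitals for bases that are mismatched or in a wobble pair. The miR167 sites were scored best with miR167c-5p and are marked against it.
ARF10 miR160 site, chr2:12115741-12115761, plus strand: AggAatacagggagccaggca
ARF16 miR160 site, chr4:14704141-14704161, minus strand: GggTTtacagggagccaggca
ARF17 miR160 site, chr1:29274189-29274209, plus strand: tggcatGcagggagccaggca
ARF6 miR167 site, chr1:10686479-10686499, minus strand: TGagatcaGgctggcagcttG
ARF8 miR167 site, chr5:14633840-14633860, plus strand: TTagatcaGgctggcagcttG
TIR1 miR393 site, chr3:23273727-23273748, minus strand: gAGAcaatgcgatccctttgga
AFB1 miR393 site, chr4:1405341-1405362, minus strand: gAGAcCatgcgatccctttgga
AFB2 miR393 site, chr3:9870237-9870258, plus strand: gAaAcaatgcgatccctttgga
AFB3 miR393 site, chr1:4369085-4369106, minus strand: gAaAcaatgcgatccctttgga
The AFB2 and AFB3 sites are the same sequence, with 2 mismatches to miR393. TIR1 adds 1 wobble to that, and AFB1 has 3 mismatches and 1 wobble. The best positions in AFB4 and AFB5 scored 6.5 and 7. A match of letters is a description and shows no cleavage. Sites of small RNAs from TAS3 loci, which are listed as acting on ARF2, ARF3 and ARF4, were not sought.

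Promoters were read as the 250 bases before each annotated gene start and searched on both strands for TGTCTC, the auxin response element, and for TGTCGG, a variant with high affinity for ARF proteins. They share their first 4 letters, so 1 position on a strand cannot hold both, and on opposite strands they can overlap by 1 base. TGTCTC stood in 9 of 29 Aux/IAA promoters (31.0%), 1 of 15 ARF promoters (6.67%) and 1 of 6 receptor promoters (16.7%), beside 10.9% of all 27443 protein-coding promoters. TGTCGG stood in 6 of 29 Aux/IAA promoters (20.7%), 2 of 15 ARF promoters (13.3%) and none of the 6 receptor promoters, beside 4.16% of all. The promoters of IAA19, which had the most TGTCTC copies of the family, and of IAA27, the most abundant member, are shown with the motifs in capitals.
IAA19 promoter, chr3:5263751-5264000, plus strand: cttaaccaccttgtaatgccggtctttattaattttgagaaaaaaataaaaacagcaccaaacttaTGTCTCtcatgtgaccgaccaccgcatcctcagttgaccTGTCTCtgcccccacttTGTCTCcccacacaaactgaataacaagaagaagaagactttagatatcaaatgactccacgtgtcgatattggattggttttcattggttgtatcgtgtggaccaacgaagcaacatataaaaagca
IAA27 promoter, chr4:14325362-14325611, minus strand: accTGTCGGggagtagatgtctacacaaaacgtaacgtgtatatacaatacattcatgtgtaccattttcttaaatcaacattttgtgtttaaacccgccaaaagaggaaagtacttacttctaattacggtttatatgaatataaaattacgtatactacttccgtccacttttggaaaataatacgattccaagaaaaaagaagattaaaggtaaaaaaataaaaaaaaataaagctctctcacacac
IAA19 holds 3 copies of TGTCTC, and IAA27 holds 1 TGTCGG and no TGTCTC.

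The 4 libraries held between 5639486 and 7692788 counts. Levels are given as CPM, counts scaled to a library of 1000000, and between genes as CPM per kb of exon. The limit that a count of 0 allows, 3 counts, corresponds to 0.419 to 0.565 CPM over the libraries, and covers counting error only. The label of the tissue was checked against fixed markers. All 6 measured genes of the meristem and organ boundary list, all 4 green leaf genes and all 4 vascular genes reached 1 CPM in every core. None of the 5 root genes did, and EXPA7, a root hair gene, had no count. The summed CPM of the root list was 11.0 in core 1, 14.9 in core 2, 0.612 in core 3 and 2.83 in core 4, most of it in cores 1, 2 and 4 from the nitrate transporter gene NRT2.1. Of the 3 pollen genes used, GEX2 had no count and the other two reached 1 CPM in every core (summed 17.5 to 28.9 CPM).

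Only loci with 1 transcript model have usable levels. Counts are listed per model, and the mean count of a protein-coding locus had a median of 55.5 where there was 1 model, 0.5 where there were 2 and 0.25 where there were 3 or more. Among the members, 35 of 50 have 1 model: 22 of the 29 Aux/IAA genes, 8 of the 15 ARF genes and 5 of the 6 receptor genes. The 15 others are IAA7, IAA8, IAA9, IAA11, IAA12, IAA13, IAA32, ARF1, ARF2, ARF6, ARF7, ARF8, ARF9, ARF11 and AFB4. In 13 of these the models together held between 0 and 7 counts over all 4 libraries, which is no measure of the gene. IAA7 and AFB4 are the exceptions and are described in the closing section. The missing genes include 3 of the 5 activating ARF genes, ARF6, ARF7 and ARF8, and both miR167 targets.

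The measured members were mostly expressed. Of 35 members, 28 (80.0%) reached 1 CPM in every core, 5 did so in some cores and 2 in none, whereas 61.7% of 20912 nuclear protein-coding loci with 1 model did so in every core. Their median level was 24.2 ± 3.80 CPM per kb (SD, n = 4 cores), beside 4.82 ± 0.205 CPM per kb for those 20912 loci. By family, the median level was 66.3 ± 11.7 CPM per kb for the receptors, 17.3 ± 2.60 for the ARF genes and 16.1 ± 2.44 for the Aux/IAA genes. In each core the receptor median lay above both other medians, 3.03 to 4.65 times the ARF median and 3.78 to 4.50 times the Aux/IAA median. The Aux/IAA genes covered a far wider range than the other families, with 0.0744 CPM per kb for IAA34 and 279 CPM per kb for IAA27.

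**Figure D1:**
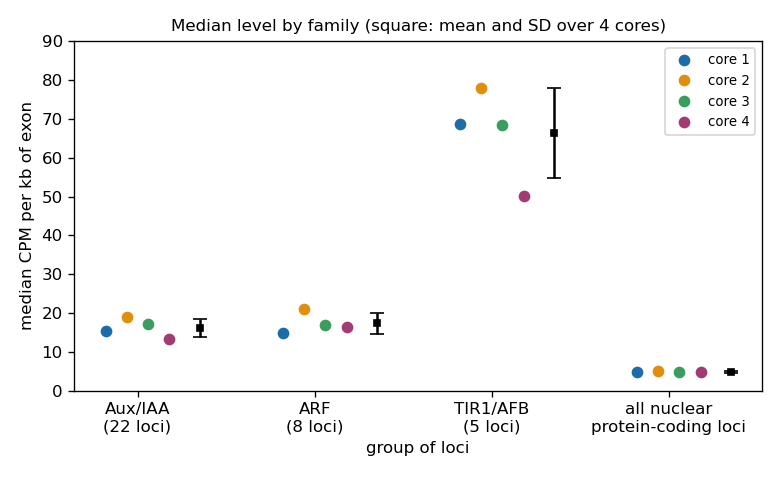
Median CPM per kb of exon (vertical axis, from 0) of the 22 Aux/IAA, 8 ARF and 5 TIR1/AFB loci with 1 transcript model, beside all nuclear protein-coding loci with 1 model. Points are the 4 cores and squares with bars are mean and SD, with the receptors at 66.3 ± 11.7 and all loci at 4.82 ± 0.205.

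All 5 measured receptor genes were well expressed, within a range of 37.5 to 83.2 CPM per kb on average. AFB1, a receptor known for fast auxin responses in roots (AT4G03190, TAIR10.1 reference, chromosome 4, 1404887 to 1407402, minus strand), had 70.4, 82.0, 92.9 and 87.4 CPM per kb in cores 1 to 4. AFB5, a receptor known for its response to the auxin herbicide picloram (AT5G49980, chromosome 5, 20333897 to 20336671, minus strand), had 77.1, 90.1, 87.4 and 65.3 CPM per kb. AFB1 and AFB5 held the top of the measured receptor genes without a fixed order, since each was higher in 2 of the 4 cores. TIR1, the founding receptor (AT3G62980, chromosome 3, 23273065 to 23276630, minus strand), followed with 68.8, 77.9, 68.5 and 50.1 CPM per kb, below AFB5 in 4 of 4 cores although their ranges overlap. AFB2 (AT3G26810) had 42.8, 45.0, 58.9 and 48 CPM per kb. AFB3 (AT1G12820) was the lowest measured receptor gene, with 35.2, 40.9, 40.1 and 33.9 CPM per kb and no overlap with AFB2. AFB1 and AFB5 together took 51.7 ± 1.47% of the summed CPM per kb of the 5 measured receptor genes (SD, n = 4 cores). Exons of AFB1 and AFB3 lie opposite those of genes on the other strand along 20.4% and 31.4% of their length. Most of that overlap is with annotated non-coding loci for which no counts were available. The libraries were strand-specific, but whether the counting used the strand is not stated, so reads of such partners cannot be told apart from those of the receptor genes.

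The 8 measured ARF genes fell into an upper and a lower set, and all reached 1 CPM in every core. ARF3, also called ETTIN, which acts in carpel patterning and leaf polarity (AT2G33860, chromosome 2, 14325206 to 14328978), had 26.5, 37.0, 27.8 and 35.1 CPM per kb in cores 1 to 4. ARF18, a member of the repressing class (AT3G61830), had 28.9, 29.9, 31.6 and 29.4 CPM per kb. ARF4, which acts with ARF3 in the lower side of the leaf (AT5G60450), had 20.5, 31.3, 27.8 and 25.6 CPM per kb. These 3 overlap in their ranges, so their own order is not clear. Each was above ARF5 in 4 of 4 cores, although the ranges of ARF3 and ARF4 overlap that of ARF5. ARF5, also called MONOPTEROS, an activator needed for flower initiation and veins (AT1G19850, chromosome 1, 6886669 to 6891404), had 18.1, 28.8, 25.5 and 23.7 CPM per kb, above ARF10 in 4 of 4 cores with no overlap.

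The lower ARF set holds the 3 genes with a miR160 site and the activator ARF19. ARF10 (AT2G28350) had 11.5, 13.1, 8.12 and 7.66 CPM per kb and ARF16 (AT4G30080) 10.7, 9.18, 8.47 and 9.37 CPM per kb. ARF17 (AT1G77850) was the lowest, with 5.0, 5.12, 4.75 and 5.14 CPM per kb. ARF19, which acts with ARF7 in lateral roots and tropisms (AT1G19220), had 4.85, 5.61, 6.02 and 5.14 CPM per kb and was not apart from ARF17. The 5 measured ARF genes without a miR160 site had a median of 25.9 ± 4.02 CPM per kb, and the 3 with a site 8.91 ± 1.34 CPM per kb (SD, n = 4 cores). The first median was 1.92 to 3.42 times the second in the 4 cores, with no test of these 8 genes as a group. Among the genes without a miR160 site, ARF3 and ARF4 are listed as targets of small RNAs from TAS3 loci.

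**Figure D2:**
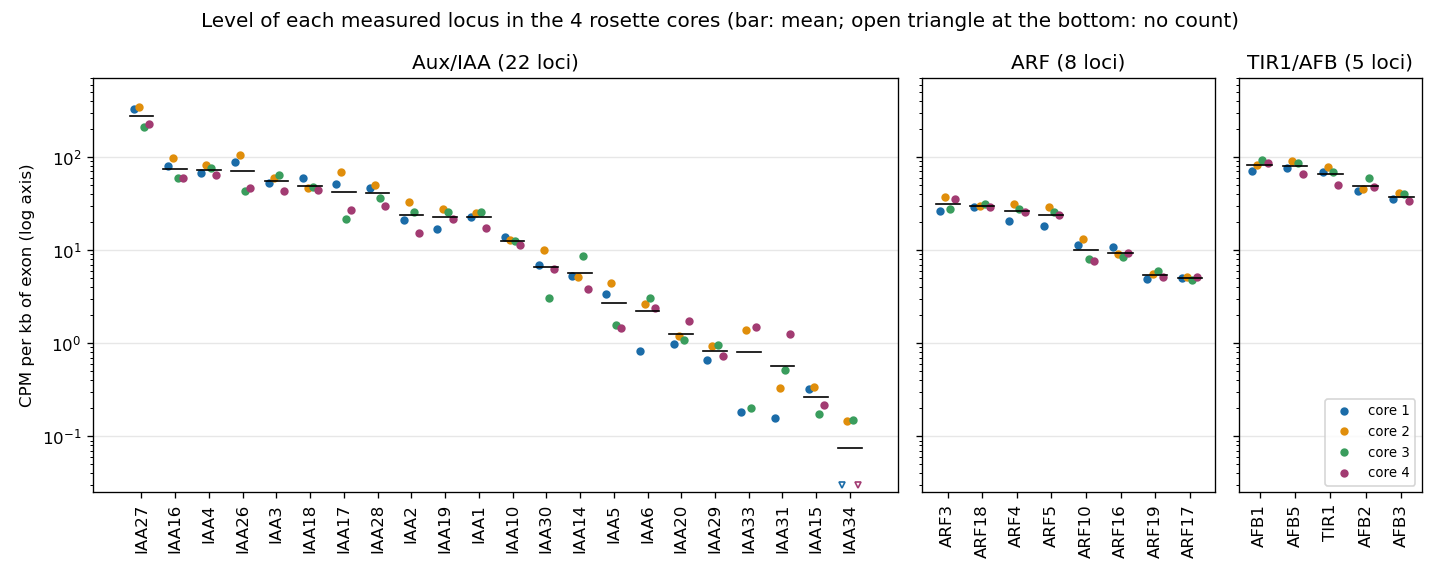
CPM per kb of exon (vertical log axis) of the 35 measured loci in order of their mean within each family. Points are the 4 cores, black bars the means, and open triangles at the bottom mark cores with no count; IAA27 stands at 279 CPM per kb on average and IAA34 at 0.0744.

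Among the Aux/IAA genes a single repressor gene, IAA27, held about as much as the next 4 together. IAA27 (AT4G29080, chromosome 4, 14323296 to 14325361, minus strand), known as a phytochrome-associated protein, had 330, 347, 212 and 228 CPM per kb in cores 1 to 4. It took 35.3 ± 2.67% of the summed CPM per kb of the 22 measured Aux/IAA genes (SD, n = 4 cores) and was higher than 98.1% of nuclear protein-coding loci with 1 model. Its range did not meet that of IAA16, the next member (AT3G04730, chromosome 3, 1288155 to 1290891), with 79.4, 97.9, 60.1 and 60.3 CPM per kb.

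IAA16, IAA4 and IAA26 lay close together below it, in an order that changed between cores. IAA4 (AT5G43700) had 67.5, 81.9, 75.9 and 63.6 CPM per kb. IAA26, another phytochrome-associated protein (AT3G16500), had 89.2, 105, 43.7 and 47.0 CPM per kb. With these 3, IAA27 made up 62.9 ± 3.04% of the measured sum. IAA3, also called SHY2 and known from light-grown seedlings and root growth (AT1G04240), had 52.9, 59.2, 64.9 and 43.0 CPM per kb in cores 1 to 4. IAA18 had 60.0, 46.0, 47.5 and 43.9 CPM per kb, highest in core 1. The exons of IAA3 lie along 39.6% of their length opposite AT1G04230, which had 98 to 170 counts per library, where IAA3 had 309 to 574. IAA17, also called AXR3, whose stabilised form makes plants auxin resistant (AT1G04250), had 51.5, 69.1, 21.7 and 27.2 CPM per kb, and IAA28, known from lateral root formation, had 40.6 ± 9.42 CPM per kb.

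The middle of the family was formed by IAA2, IAA19, IAA1 and IAA10. IAA2 had 21.2, 33.1, 25.9 and 15.1 CPM per kb in cores 1 to 4. IAA19, known from hypocotyl growth and tropisms, had 16.8, 27.6, 25.9 and 21.6 CPM per kb. IAA1 had 22.9, 25, 25.7 and 17.1 CPM per kb. IAA2, IAA19 and IAA1 could not be ordered beyond their spread. IAA10, with 12.6 ± 1.00 CPM per kb (SD, n = 4 cores), lay below IAA1 and above IAA30 without overlap. Another gene, for which no counts were available, lies opposite 27.6% of the exon length of IAA10. IAA30 had 6.57 ± 2.85 and IAA14, known for its part in lateral root formation, 5.72 ± 2.08 CPM per kb.

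At the low end stood 8 Aux/IAA genes with too few counts for the test below. IAA5 had 19, 23, 8 and 6 counts in cores 1 to 4 and IAA6 had 5, 15, 17 and 11. IAA20 had 7 to 9 counts per library and IAA29 had 5 to 8. IAA33 (1 to 7 counts) and IAA31 (1 to 6 counts) passed the limit of 3 counts in some libraries only. IAA15 had 1 or 2 counts and IAA34 0 or 1 in each library, below that limit. IAA15 thus had reads in every library, but both genes had too few for a reliable level at this depth. IAA20, IAA30, IAA31, IAA33 and IAA34 belong to the Aux/IAA proteins known to have an incomplete degron or none, and IAA30 was the highest of these.

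The 7 measured Aux/IAA genes with TGTCTC in the promoter had a median of 3.31 ± 0.823 CPM per kb, and the 15 without it 36.3 ± 11.3 CPM per kb (SD, n = 4 cores). IAA19, with 3 copies, and IAA1 were the highest of the first set, with 16.8 to 27.6 and 17.1 to 25.7 CPM per kb over the cores and no order beyond their spread. The second set ran from 0.263 CPM per kb for IAA15 to 279 CPM per kb for IAA27. This is a comparison of levels in these cores with no test, and the 2 sets overlap.

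Several Aux/IAA genes lie side by side. IAA3 (chromosome 1, 1128149 to 1129689) and IAA17 (1136078 to 1138663) are divergent and 6388 bp apart. IAA14 (chromosome 4, 8347822 to 8350263) and IAA1 (8360996 to 8362033) are divergent and 10732 bp apart, and IAA2 and IAA7 are 12510 bp apart on chromosome 3. In each case 1 annotated locus lies between. IAA3 was highest in core 3, where IAA17 was lowest. IAA14 and IAA1 were both highest in core 3 and lowest in core 4, IAA14 with 8.68 CPM per kb in core 3 and 3.79 to 5.26 CPM per kb in the others, and IAA1 with 22.9 to 25.7 CPM per kb in cores 1 to 3. IAA7 has no usable level, so the third pair was not compared.

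Most members varied between the cores by more than counting noise, and Aux/IAA genes spread the most. Of the 35 measured members, 27 had enough counts for the test, a chi-square test of whether the counts of a locus fit equal levels given the library sizes, with Benjamini-Hochberg adjustment over all 12771 nuclear loci tested. Of these, 22 (81.5%) varied, beside 8200 loci (64.2%) of all tested. The test calls abundant genes more readily. Among tested loci of at least 10 CPM on average, 21 of 26 members (80.8%) and 70.9% of all loci varied. By family, 13 of 14 tested Aux/IAA genes, 4 of 8 ARF genes and 5 of 5 receptor genes varied. The 5 that did not pass were IAA10, ARF16, ARF17, ARF18 and ARF19, with an adjusted p between 0.246 and 0.954 in this chi-square test, which does not show that they were constant. The highest core was at least 2 times the lowest in 5 members (18.5%) and in 15.7% of all tested loci, so in size the members' spread was close to that of other genes. The coefficient of variation over the cores had a median of 23.8% for the tested Aux/IAA genes, 13.2% for ARF genes and 14.1% for receptor genes, beside 16.6% for all tested loci.

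The 5 widest members are all Aux/IAA genes. IAA17 had 67.8, 91.0, 28.6 and 35.8 CPM in cores 1 to 4, with 3.18 times as much in its highest core as in its lowest (adjusted p = 1.18e-59, chi-square test over all loci). IAA26 had 185.5, 219, 90.8 and 97.8 CPM, a ratio of 2.41 (adjusted p = 1.11e-109, same test). Both were high in cores 1 and 2 and low in cores 3 and 4. The abundant IAA27 (474, 498, 305 and 327 CPM) had the same order of cores, with a highest-to-lowest ratio of 1.63. IAA16 (161, 198, 122 and 122 CPM), with the same ratio, was also highest in core 2 and then core 1, but cores 3 and 4 were nearly equal.

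The meristem gene STM had 194, 317, 95.7 and 162 CPM in cores 1 to 4, and its relative KNAT1 had 153, 289, 97.1 and 108.5 CPM. Both had the order of cores seen in IAA17, IAA26 and IAA27. The whole meristem and boundary list did not, with a sum of 1497, 1302, 1273 and 1373 CPM, most of it from the epidermal gene PDF1, which had 1141, 683, 1070 and 1093 CPM and was lowest in core 2. The less abundant CUC1, CUC2 and LFY of that list did not have it either. CUC1 was highest in core 1, CUC2 was highest in core 4, and LFY was lowest in core 4. The share of all loci with this order was not counted. The green leaf list summed to 38850, 27050, 39380 and 31450 CPM and the vascular list to 279, 263, 320 and 267 CPM. The summed root list, given above, had the same order of cores as IAA17, highest in core 2 and lowest in core 3. The part of these tissues in the spread of IAA17, IAA26, IAA27 and IAA16 was not tested. In bulk tissue, fewer cells of a type and less RNA per cell cannot be told apart.

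The other wide members had patterns of their own. IAA30 had 6.85, 9.98, 3.06 and 6.22 CPM, a ratio of 3.26, with its lowest value in core 3 (adjusted p = 6.19e-05, chi-square test over all loci). That call was lost without core 3 (adjusted p = 0.0716). IAA14 had 9.93, 9.68, 16.4 and 7.16 CPM, a ratio of 2.29, with its highest value in core 3 (adjusted p = 2.46e-05, same test), and its call was lost without that core (adjusted p = 0.319). IAA2 had 28.8, 45.0, 35.2 and 20.5 CPM, a ratio of 2.19, and was lowest in core 4 (adjusted p = 5.48e-12, same test). Of the remaining calls, those of IAA18 and IAA19 were lost without core 1 (adjusted p = 0.548 and 0.163), that of AFB2 without core 3 (0.126) and that of IAA1 without core 4 (0.603).

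Core 2 held the highest value of 16 of the 27 tested members and the lowest of none. Among all tested loci, core 2 was the highest for 28.4% and the lowest for 27.4%. Core 4 was the lowest core for 12 members and core 1 for 8, and among all tested loci for 20.9% and 22.3%. In the ARF genes the low core was more often core 1, in 5 of 8, than core 4, in 1 of 8. ARF5 had 65.4, 104, 92.3 and 85.5 CPM (adjusted p = 6.99e-13, chi-square test over all loci) and ARF4 had 67.1, 102, 90.6 and 83.5 CPM (adjusted p = 1.36e-10, same test), both lowest in core 1 and highest in core 2. ARF17, with 14.8, 15.2, 14.1 and 15.3 CPM, and ARF18, with 74.65 to 81.6 CPM, had the smallest spread of the 27, a coefficient of variation of 3.62% and 3.91%.

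**Figure D3:**
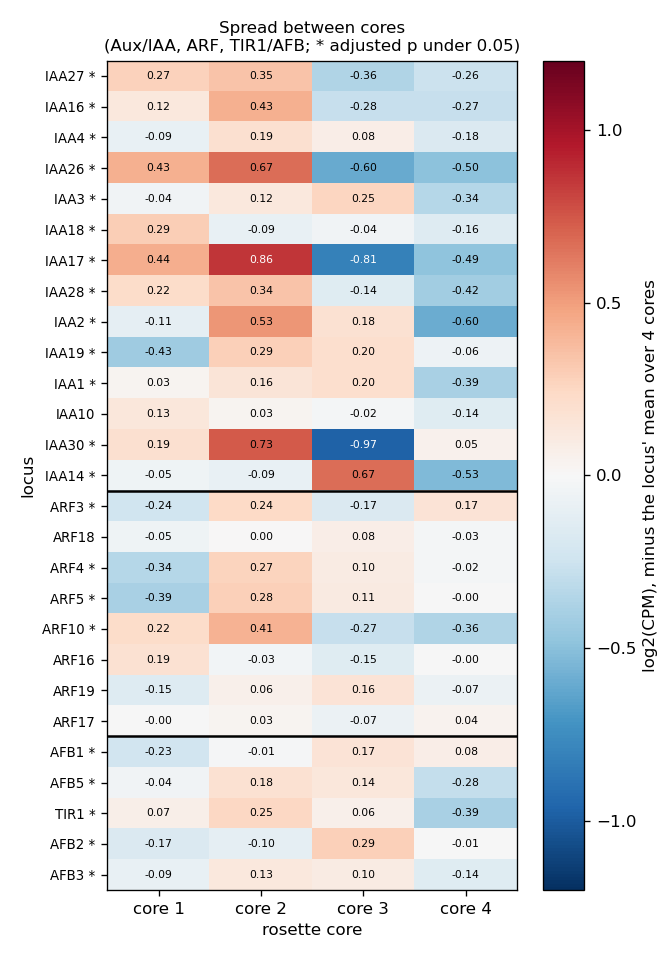
Log2 CPM of each of the 27 tested loci minus its own mean over the 4 cores, with Aux/IAA, ARF and TIR1/AFB genes from top to bottom and an asterisk for those that varied beyond counting noise. IAA17, with 3.18 times as much in core 2 as in core 3, and IAA26 show the strongest colours together with IAA30, and most ARF and receptor rows are paler.

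Related members were set against each other within the same RNA as the log2 ratio of counts per kb. Of 23 pairs listed, 12 could be compared, since the others hold a gene with several models or under 10 counts. In 9 of the 12 the same gene was higher in all 4 cores. With 4 cores the two-sided p of an exact sign test cannot go below 1 in 8, so no pair can pass 0.05 by itself and the ratios are a description. The SD does not cover an error in a gene's exon length, which would shift all 4 values alike.

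The steepest ratios were within the Aux/IAA family. IAA6 over IAA19 had a log2 ratio of -3.44 ± 0.54 (SD, n = 4 cores) with IAA6 lower in 4 of 4. IAA20 over IAA30 had a log2 ratio of -2.24 ± 0.73, with IAA20 lower in 4 of 4. IAA6 and IAA20 had few counts, which limits both ratios. IAA16 over IAA17 had a log2 ratio of 0.93 ± 0.45, at 0.62, 0.50, 1.46 and 1.15 in cores 1 to 4, so the excess of IAA16 was larger in cores 3 and 4. IAA3 over IAA4 had a log2 ratio of -0.40 ± 0.15 with IAA3 lower in 4 of 4. IAA1 and IAA2 (-0.03 ± 0.26) changed order between cores, as did IAA18 and IAA26 (-0.44 ± 0.58), where IAA26 was higher in 3 of 4.

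ARF3 over ARF4 had a log2 ratio of 0.27 ± 0.20 (SD, n = 4 cores), and in core 3 it was 0.00. With no length term, ARF3 was higher in 3 of 4 cores. ARF10 over ARF16 had 0.07 ± 0.34, with each gene higher in 2 cores. Among the receptors, TIR1 over AFB5 had -0.28 ± 0.11 and TIR1 over AFB1 had -0.34 ± 0.36, with TIR1 lower in 4 of 4 in both. That order of TIR1 and AFB1 rests on the length term: in CPM, with no length term, each was higher in 2 cores and the mean log2 ratio was -0.15. Per kb, the TIR1 over AFB1 ratio was -0.03, -0.07, -0.44 and -0.80 in cores 1 to 4, near 0 in cores 1 and 2. TIR1 over AFB2 had 0.44 ± 0.35 and AFB2 over AFB3 had 0.37 ± 0.19, the first-named gene being higher in 4 of 4 in both.

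**Figure D4:**
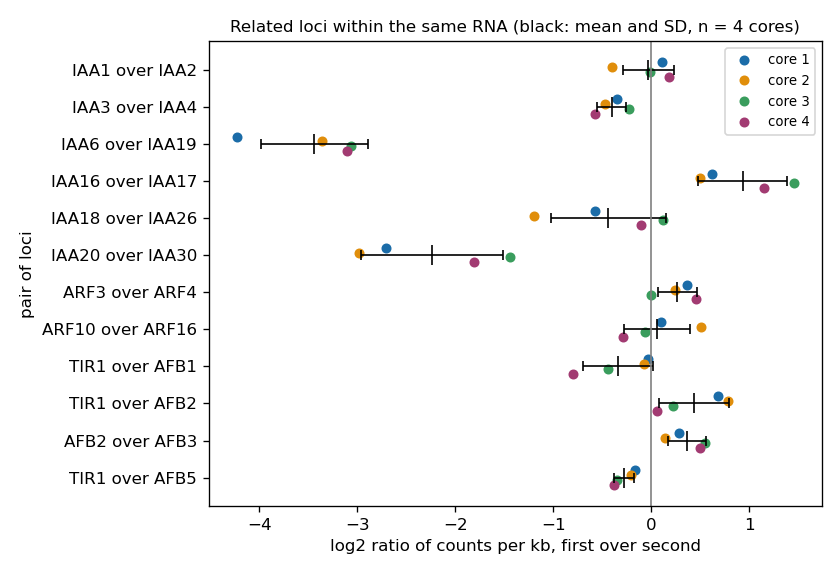
Log2 ratio of counts per kb of the first over the second gene (horizontal axis) for 12 pairs of related loci. Points are the 4 cores and black bars mean and SD; IAA6 over IAA19 at -3.44 and IAA20 over IAA30 at -2.24 lie farthest from 0.

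The partners of these proteins were listed apart. Of 10 genes of the SCF ligase and of its RUB modification, 5 have 1 model. All 5 reached 1 CPM in every core and varied beyond counting noise, as did 70.9% of all tested loci of at least 10 CPM. ASK1, the adaptor that joins F-box proteins to the ligase (AT1G75950), had 560 CPM in core 1, 519 in core 2, 402 in core 3 and 416 in core 4. ASK2, its close relative, had 190, 187, 156.5 and 163.5 CPM. Both were higher in cores 1 and 2 than in cores 3 and 4. RUB1, the modifier itself, had 86.1, 95.9, 75.9 and 74.8 CPM. ECR1, a subunit of the enzyme that activates RUB, had 71.4, 74.7, 82.5 and 84.8 CPM and was the lowest of the 5 per kb. Of the 5 TOPLESS corepressor genes only TPR2 has 1 model, with 31.7, 44.8, 46.6 and 43.0 CPM. The 7 measured ARF genes of the chromosome 1 cluster had 4 counts in all, the most being 2 for ARF12, too few for a reliable level of any of them. They are close copies of each other, so reads that match several of them may be missing, which makes these values uncertain.

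Auxin response genes ranged from clear expression to near absence. Of 17 such genes, all with 1 model, 8 reached 1 CPM in every core, 5 in none and the others in some cores only. Of the 7 with enough counts, all of at least 10 CPM on average, 6 varied, beside 70.9% of all tested loci at that level. GH3.5, an enzyme that conjugates auxin to amino acids (AT4G27260), had 226, 288, 102 and 146 CPM in cores 1 to 4. GH3.6, of the same enzyme family, had 170, 177, 103 and 117 CPM. Both had the order of cores seen in IAA27, from core 2 as the highest through cores 1 and 4 to core 3. Of the other tested response genes, GH3.3 and TMO5 had this order. HAT2 was highest in core 2 and lowest in core 4. HB8 was highest in core 3, and GH3.2, which did not pass the test, in core 4. The share of all loci with the order of IAA27 was not counted. LBD29, a lateral root gene, had 2 counts and GH3.4 had 1 count over all libraries.

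Precursors of the small RNAs gave few counts. Of 14 loci listed, 13 have 1 model and held 322 counts in all, and the libraries were not made for small RNAs. MIR167d was the highest per kb and the only one with enough counts for the test, with 3.91, 3.72, 8.42 and 4.52 CPM in cores 1 to 4 (adjusted p = 0.00071, chi-square test over all loci), highest in core 3. MIR167b had 0.559 to 1.38 CPM. The 3 miR160 loci had 10, 2 and 5 counts over all libraries, both miR393 loci 1 and 8, and MIR167c none. These low values describe precursor RNA and give no level of the mature miRNAs.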

How the data were processed

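RNA of 4 rosette cores was depleted of ribosomal RNA, made into strand-specific libraries and sequenced on an Ion Proton with Torrent Suite 4.0.2, per the labels' protocols. HTSeq and TAIR10 are named in the submitters' processing notes; the aligner and counting options were not given in the sources used here, and the authors' deposited table holds unnormalized counts for each transcript model.

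Models were summed per locus, and nuclear loci with 1 model were used. Loci low in any library were removed with edgeR 4.0.16 (filterByExpr, minimum count 10), leaving 12771 loci, and CPM use TMM scaling (R 4.3.3). Exon lengths, symbols, coordinates and sequences come from RefSeq's annotation of TAIR10.1; all 50 members matched by locus. Variation was tested per locus as excess over Poisson noise by chi-square, using the TMM-scaled libraries, with Benjamini-Hochberg adjustment and a threshold of 0.05. The code was tested on simulated data. DESeq2 1.42.0 size factors were an alternative. Pair ratios use a prior count of 0.5. Protein motifs were not analysed here.

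The members, pairs and lists were chosen with earlier results of these data known. Values per core are given for the 3 highest and 2 lowest members per kb of each family, pair members, the 5 called members of at least 5 CPM with the widest ratio, and the 2 highest and 2 lowest genes of each further list; other genes named were chosen after their values were seen. A pollen marker whose symbol and locus disagreed was left out.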

Additional observations from a re-analysis of the deposited data

Results flagged for a closer look

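A signal appeared in rows left out of the levels. IAA7, also called AXR2, has 2 models, whose summed counts were 352, 422, 527 and 261 in cores 1 to 4, at least 261 in every library and above the 3 counts that a count of 0 allows. Nearly all lay on the first model, with 259 to 525 counts per library, and the second had 1 or 2. AFB4 has 2 models with summed counts of 80, 62, 63 and 56, at least 56 in every library, of which 6 to 14 lay on the second. Reads that could belong to both models may be missing from these sums, so neither is a level and neither was ranked. In the 50 groups of 4 values checked for a sample far from the others (members, family medians and pairs), none was found, where chance gives about 1 in 20.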

How the results depend on the processing

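The count of members that varied, 22, was 22 with DESeq2 size factors and with library totals alone, 23 with no filter on low counts (IAA5 was added, adjusted p = 0.0341 by the chi-square test), 23 with all loci and summed models, and 19 to 22 without any 1 core. Members at 1 CPM in every core numbered 28 to 30 without any 1 core. Family medians moved by less than their SD under both other scalings and without any 1 core (15.04 to 17.1 CPM per kb for Aux/IAA, 15.9 to 18.3 for ARF and 61.8 to 71.9 for receptors). With all loci and summed models the Aux/IAA median became 4.24 and the ARF median 4.88 CPM per kb, as genes with several models enter at almost no counts. With no length term the medians were 18.4 CPM for Aux/IAA, 52.4 CPM for ARF and 167.1 CPM for receptors, which is another quantity. The receptor median was again the highest, but the closeness of the ARF and Aux/IAA medians rests on the length term. Pairs with 1 order in every core numbered 9 with a prior count of 2 and 9 to 10 without any 1 core. With no length term they also numbered 9, of which 7 were shared: ARF3 over ARF4 and TIR1 over AFB1 lost their single order, and IAA1 over IAA2 and IAA18 over IAA26 gained one. Without core 2 the mean log2 ratio of IAA1 over IAA2 became 0.10 and that of ARF10 over ARF16 became -0.08, both of the other sign; neither pair had 1 order in all cores. No paired analysis was possible because the samples form 1 group. Depth limits genes under 3 counts per library, and no level could be had for 15 members.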
